A study of Mus musculus with 2 samples.

Results

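Daxx, Eif3g, Zbtb7a, Arid1b, Fat1 and Ctu1 hold the densely measured 1 kb stretches with the largest fall or the highest retention of CpG methylation. The cells were mouse embryonic fibroblasts (MEFs), and those deficient for Dnmt1 were set against Dnmt1+/+ MEFs. The genes were chosen by measured values. In the series, 31225 annotated genes had a measured CpG in the gene or within 5 kb of it. The ranking covered 13862 tiles of 1 kb with at least 20 measured CpGs, so a gene without such a tile could not be chosen. Daxx, Eif3g and Zbtb7a hold the 3 tiles with the largest fall from Dnmt1+/+ to Dnmt1-/-. Arid1b, Fat1 and Ctu1 hold the 3 tiles with the highest Dnmt1-/- mean among the 757 of these tiles at 80% or more in Dnmt1+/+. The question here was whether the loss or the retention extended over the whole gene or stopped close to the chosen tile, and all CpGs of the 6 genes with 5 kb to either side were read for this purpose.

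The assay was RRBS, a reduced-representation form of bisulfite sequencing with extended coverage, in which restriction fragments are sequenced after unmethylated cytosine has been converted. There was 1 library of Dnmt1+/+ MEFs and 1 of Dnmt1-/- MEFs. Cells called Dnmt1-/- carry on both chromosomes the n allele of Dnmt1 (Dnmt1 n/n), which is hypomorphic, and the cells of both groups lack trp53, the gene of p53, as homozygous nulls. Age, sex and the number of embryos or cultures behind each library are not given in the sources used here. Cell type could not be checked from CpG methylation. With 1 library per genotype there was no replicate, so every difference below is a difference between 2 libraries, and intervals cover counting error only.

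The libraries held 74636195 (Dnmt1+/+) and 78401157 (Dnmt1-/-) methylation calls, with median depths of 29 and 30 calls per CpG and a minimum of 10 in both. Of all measured CpGs, 44.4% lay in CCGG or TCGA, the recognition sequences of the restriction enzymes MspI and TaqI, and averaged 57.1% in Dnmt1-/-. The remaining CpGs, called other CpGs here, averaged 45.0% in Dnmt1+/+ and 15.1% in Dnmt1-/-, a genome-wide fall in the direction the genotype labels imply. The 6 genes and their flanks held 1418 measured CpGs, of which 932 were other CpGs, between 37 and 249 per gene. Values are for other CpGs unless stated.

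Dnmt1 restores the methylation of CpGs on the new strand after DNA replication, so that methylated sites stay methylated through cell division. In mammals CpG-rich promoters are usually free of methylation, while the CpGs of gene bodies are mostly methylated. Methyltransferases of the Dnmt3 family can add methylation to CpGs that carry none, and these are known to act in the bodies of transcribed genes.

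The following 200-base stretches of the 6 chosen tiles show where the measured CpGs lie. All are on the plus strand of the mm9 (NCBIM37) build, and capitals mark the measured CpGs outside CCGG and TCGA. The 3 stretches of the genes chosen for loss come first, from chr17:34048667-34048866 in Daxx, chr9:20699315-20699514 in Eif3g and chr10:80606719-80606918 in Zbtb7a.
Daxx: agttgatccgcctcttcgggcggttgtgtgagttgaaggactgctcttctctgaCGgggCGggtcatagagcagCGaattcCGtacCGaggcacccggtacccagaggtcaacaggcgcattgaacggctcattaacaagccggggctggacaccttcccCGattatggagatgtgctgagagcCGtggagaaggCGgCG
Eif3g: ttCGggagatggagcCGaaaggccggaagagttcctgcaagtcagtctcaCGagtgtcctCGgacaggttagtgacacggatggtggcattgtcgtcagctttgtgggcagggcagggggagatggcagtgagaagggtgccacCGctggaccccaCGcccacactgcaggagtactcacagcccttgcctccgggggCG
Zbtb7a: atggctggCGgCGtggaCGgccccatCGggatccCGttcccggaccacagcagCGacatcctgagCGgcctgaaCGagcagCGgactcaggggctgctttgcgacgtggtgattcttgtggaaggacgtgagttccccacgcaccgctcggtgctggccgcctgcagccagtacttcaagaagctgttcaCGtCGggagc

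The stretches of the genes chosen for retention come from chr17:5342025-5342224 in Arid1b, chr8:46037163-46037362 in Fat1 and chr7:50930712-50930911 in Ctu1.
Arid1b: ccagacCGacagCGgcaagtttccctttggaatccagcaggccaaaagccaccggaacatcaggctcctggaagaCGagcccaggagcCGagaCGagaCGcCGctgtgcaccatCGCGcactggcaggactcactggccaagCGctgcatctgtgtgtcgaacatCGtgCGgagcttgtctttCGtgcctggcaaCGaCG
Fat1: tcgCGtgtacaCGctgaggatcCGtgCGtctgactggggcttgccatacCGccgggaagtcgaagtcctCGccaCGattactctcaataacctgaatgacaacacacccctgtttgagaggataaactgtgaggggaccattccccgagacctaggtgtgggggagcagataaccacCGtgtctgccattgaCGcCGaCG
Ctu1: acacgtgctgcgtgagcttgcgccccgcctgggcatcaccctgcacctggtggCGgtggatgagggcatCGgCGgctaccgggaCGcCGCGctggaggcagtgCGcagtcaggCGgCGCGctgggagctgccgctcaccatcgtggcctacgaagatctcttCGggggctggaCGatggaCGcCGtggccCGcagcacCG

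In Dnmt1+/+ the marked CpGs of these stretches averaged between 94.9% (Daxx) and 98.3% (Arid1b). In Dnmt1-/- the 9 marked CpGs of Daxx averaged 0.131% (0 to 1.18%), the 7 of Eif3g averaged 2.24% (0 to 4.55%) and the 11 of Zbtb7a averaged 10.5% (0 to 25.9%). By contrast the 15 of Arid1b averaged 85.0% (59.1 to 97.7%), the 11 of Fat1 averaged 81.5% (58.3 to 100%) and the 16 of Ctu1 averaged 78.7% (58.3 to 89.7%). Both kinds of stretch were rich in G and C, at 59.5%, 62.5% and 65% for the genes chosen for loss and 61.5%, 57% and 71.5% for those chosen for retention.

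By the annotation the Daxx tile was 81.8% exonic, the Eif3g tile 35.2%, the Zbtb7a tile 29.4% and the Ctu1 tile 52.7%, while the Arid1b and Fat1 tiles lay wholly in exons. The gene bodies held 29.1 (Daxx), 27.3 (Eif3g), 36.7 (Zbtb7a), 13.5 (Arid1b), 19.0 (Fat1) and 28.5 (Ctu1) CGs per kb.

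The tiles themselves are given as a description, since they chose the genes. Over all measured CpGs, the Daxx tile at chr17:34048001-34049000 fell from 95.7% to 12.0% (21 CpGs). The Eif3g tile at chr9:20699001-20700000 fell from 97.0% to 14.4% (20 CpGs). The Zbtb7a tile at chr10:80606001-80607000 fell from 96.8% to 15.5% (31 CpGs), a fall of 81.3 points. The tile just outside the choice, in Rassf1, fell by 79.9 points. Without the CpGs in CCGG or TCGA, the Dnmt1-/- means of the 3 tiles were 0.594%, 2.33% and 9.54%.

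On the other list, the Arid1b tile at chr17:5342001-5343000 was at 97.9% in Dnmt1+/+ and 81.6% in Dnmt1-/- (28 CpGs). The Fat1 tile at chr8:46037001-46038000 was at 97.9% and 80.1% (32 CpGs), and the Ctu1 tile at chr7:50930001-50931000 at 97.0% and 79.7% (21 CpGs). The tile just outside the choice, in Bend3, was at 79.7% in Dnmt1-/- and thus almost level with Ctu1. Without the CpGs in CCGG or TCGA the 3 retained tiles had Dnmt1-/- means of 80.8%, 77.3% and 77.8%.

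How far loss or retention extended was read from CpGs at 80% or more in Dnmt1+/+, since a CpG low in Dnmt1+/+ can show neither. Such a CpG was called lost at 20% or less in Dnmt1-/- and kept at 60% or more. Across all 377268 other CpGs of this class, 42.9% were lost and 18.4% were kept, with a median of 26.3% in Dnmt1-/-. In gene bodies alone, 35.0% were lost and 23.5% kept. CpGs of the 6 genes outside the tiles come from the same libraries as the tiles, and neighbouring CpGs share reads, so their counts are set beside these shares as a description and were given no test.

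**Figure D1:**
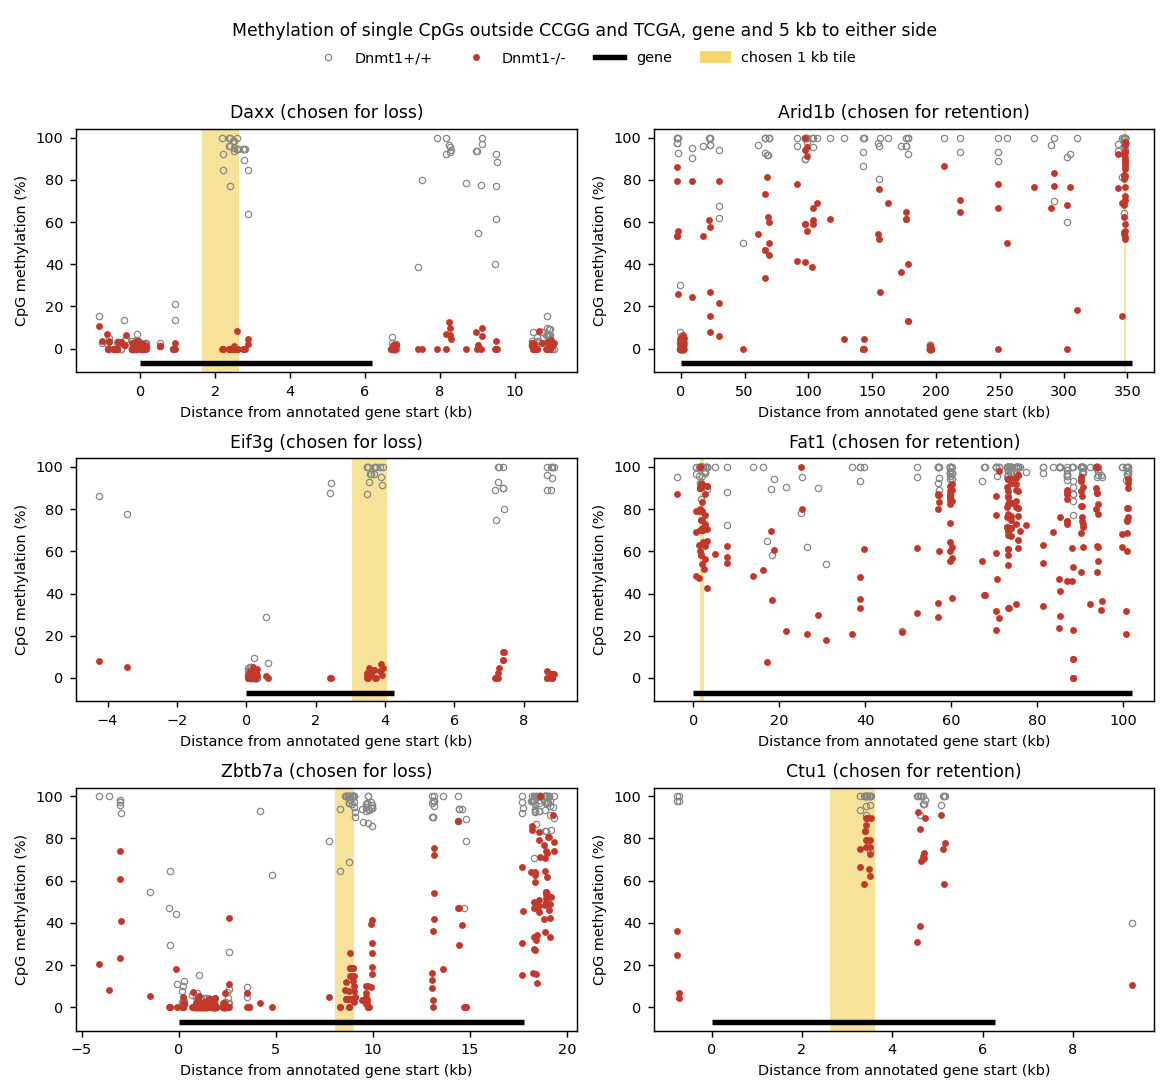
Methylation (y axis, %) of single CpGs outside CCGG and TCGA in Dnmt1+/+ (open grey circles) and Dnmt1-/- (filled red circles), against distance from the annotated start of each gene in kb (x axis, in the direction of transcription). The black bar is the gene and the yellow band the chosen 1 kb tile. The CpGs high in Dnmt1+/+ that were measured at Daxx and Eif3g, tiles and flanks included, were low in Dnmt1-/-. Such CpGs were mixed in the 5′ flank of Zbtb7a, low around its tile and higher downstream. They were mixed in Arid1b, and mostly high in Fat1 and in the measured part of the Ctu1 body.

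Daxx encodes a chaperone that deposits a variant of histone H3 together with Atrx. In the 6.18 kb gene (chr17:34046359-34052534, plus strand), measured CpGs that were high in Dnmt1+/+ were lost, but in the gene body these covered 0.704 kb alone, and from there to the gene end no other CpG was measured. Outside the tile, all 19 CpGs at 80% or more in Dnmt1+/+ were lost, with Dnmt1-/- values from 0 to 12.5% and a mean of 3.58%. Of these 19, 5 lay in the exonic remainder of the gene and averaged 0.909%, while 14 lay in the 3′ flank and averaged 4.54%. The flank CpGs stood past the end of Daxx, within the annotated spans of Tapbp and Zbtb22.

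The methylated CpGs of Daxx were bounded by CpGs of low methylation. On the 5′ side the nearest window was at 11.5% in Dnmt1+/+ and 0.926% in Dnmt1-/- (3 CpGs). The 46 promoter CpGs (within 1 kb of the start) averaged 2.64% in Dnmt1+/+ and 1.41% in Dnmt1-/-. A second block of 12 CpGs just past the end of the gene was at 1.02% and 0.742%. The lost stretch that includes the tile covered 0.704 kb between its outermost CpGs and could be at most 5.77 kb long before the nearest CpGs in another state. Depth was low in part of the tile: the Dnmt1-/- median was 12 calls, and 0 methylated of 10 calls allows a level of up to 30% (3 calls). The pooled calls of the tile gave 0.313% (95% Wilson interval 0.0860 to 1.14%, 638 calls).

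Eif3g encodes a subunit of the translation initiation factor eIF3. The tile lay near the 3′ end of this 4.25 kb gene (chr9:20698796-20703044, minus strand), 3.04 kb from its start. All 20 CpGs outside the tile at 80% or more in Dnmt1+/+ were lost, with a Dnmt1-/- mean of 3.30% and a highest value of 12.5%. Only 2 of them lay in the gene, both exonic, and neither had a methylated call in Dnmt1-/- (48 calls together). Another 17 lay in the 3′ flank inside Ppan, at 94.7% in Dnmt1+/+ and 3.42% in Dnmt1-/-, and 1 lay in the 5′ flank at 86.4% and 7.89%.

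With the Ppan windows included, the lost stretch around the Eif3g tile covered 5.39 kb. This length rests on an unmeasured gap: when a gap of over 2 kb ended a stretch, 0.468 kb remained. The 25 promoter CpGs averaged 3.16% and 1.14% and had little methylation to lose. Library depth also differed here, with 1.43 times as many calls over the gene and flanks in Dnmt1-/- as in Dnmt1+/+, and 1.55 times in the tile, against 1.05 times over all CpGs. Daxx (1.20 times) and Arid1b (1.30 times) were above the overall ratio as well, and the part of depth in the methylation values was not tested.

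Zbtb7a encodes a zinc finger repressor of the BTB family. Loss held around its tile, in the middle of the 17.8 kb gene (chr10:80597965-80615740, plus strand), and gave way to higher levels farther downstream. Of 101 CpGs outside the tile at 80% or more in Dnmt1+/+, 33 were lost, 41 were between the limits and 27 were kept. In the gene body the split was 30 lost, 13 between and 4 kept, a lost share of 63.8% against 35.0% over all gene bodies. In the 3′ flank, which lies in the 3′ part of Pias4, it was 2 lost, 25 between and 21 kept. Mean Dnmt1-/- methylation was 9.72% at the 25 CpGs within 1 kb of the tile, 28.5% at the 12 CpGs from 1 to 5 kb away and 53.6% at the 64 CpGs farther out.

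From the tile onward the levels climbed in the direction of transcription. In successive 500 bp windows downstream of the Zbtb7a tile the Dnmt1-/- means were 3.88% (5 CpGs, 9.27 kb from the start), 11.2% (20 CpGs, 9.80 kb), 32.2% (10 CpGs, 13.1 kb) and 52.9% (4 CpGs, 14.4 kb). The last window of the gene had a mean of 39.4% (4 CpGs). Past the gene end, windows stood at 44.9% (17 CpGs), 63.5% (24 CpGs) and 60.8% (9 CpGs). The climb was not smooth. A window at 14.7 kb with an intermediate Dnmt1+/+ level (77.3%) was at 9.72% in Dnmt1-/-, and within the window at 13.1 kb single CpGs ranged from 0 to 75.4%. Means over CpGs and over calls differed in several of these windows. The 95% Wilson intervals of the pooled calls were 15.4 to 19.5% where the mean was 11.2%, 37.3 to 43.5% where it was 32.2%, and 50.9 to 56.5% where it was 44.9%. They were 57.4 to 63.3% where the mean was 63.5% and 44.3 to 52.3% where it was 60.8%, so the last window was under the kept limit on pooled calls.

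The 200 bases at chr10:80617091-80617290, in the flank of Zbtb7a past its 3′ end, are shown for contrast with the Zbtb7a tile. Their 7 measured CpGs averaged 93.2% in Dnmt1+/+. In Dnmt1-/- they ranged from 33.3 to 91.3%, with a mean at the limit of 60% and 4 of the 7 below it, at a G and C content of 65.5% that is close to the 65% of the tile stretch.
Zbtb7a flank: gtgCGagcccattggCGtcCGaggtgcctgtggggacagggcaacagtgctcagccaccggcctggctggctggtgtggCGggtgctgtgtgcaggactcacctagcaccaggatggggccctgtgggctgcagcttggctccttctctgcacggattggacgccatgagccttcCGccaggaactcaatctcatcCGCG

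On the 5′ side of the Zbtb7a tile, methylation was low in both libraries over most of the first part of the gene. The nearest measured window on that side, 5.97 kb from the stretch, was at 10.3% in Dnmt1+/+ and 13.3% in Dnmt1-/-. The promoter averaged 9.58% and 1.64% (28 CpGs). Upstream of it, a window of 4 CpGs in the 5′ flank was at 95.9% and 49.8%. The lost stretch covered 1.39 kb and could be at most 10.4 kb. It was 0.446 kb with all measured CpGs, and no lost stretch remained at a limit of 10%. Depth in the tile was lower in Dnmt1-/-, at 0.712 times the Dnmt1+/+ calls.

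Arid1b encodes a DNA-binding subunit of the BAF (SWI/SNF) chromatin remodelling complex. The tile sat in an exon 4.66 kb from the end of this 353 kb gene (chr17:4994332-5347656, plus strand), and the retention was not shared by the whole gene. Outside the tile, 41 of 83 CpGs at 80% or more in Dnmt1+/+ were kept (49.4%), 29 were between the limits and 13 were lost, with a Dnmt1-/- mean of 54.2%. These CpGs ran from 0 to 100% in Dnmt1-/-. The 7 CpGs within 1 kb of the tile averaged 69.5% and the 69 CpGs over 50 kb away averaged 52.1%.

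Among 12 Arid1b windows at 80% or more in Dnmt1+/+ outside the tile, 4 were kept, 7 were between and 1 was lost. The highest, at 80.9% (3 CpGs), lay 98.6 kb from the start and far from the tile. The lost window, 143 kb from the start and intronic, had 0 methylated of 67 calls at 3 CpGs (95% Wilson interval 0 to 5.42%). The sequence at chr17:5137257-5137456 is shown as the lost counterpart of the Arid1b tile. Its 3 marked CpGs went from 93.3% to 0%, and its G and C content was 44% against 61.5% in the tile stretch.
Arid1b intron: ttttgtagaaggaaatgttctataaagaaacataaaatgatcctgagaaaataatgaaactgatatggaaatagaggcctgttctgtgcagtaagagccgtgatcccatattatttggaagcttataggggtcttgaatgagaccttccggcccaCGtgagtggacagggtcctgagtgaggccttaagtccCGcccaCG

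The kept stretch around the Arid1b tile covered 0.592 kb, and between 0.307 kb (a limit of 70%) and 1.19 kb (all measured CpGs) under other settings. Its true length is poorly bounded, because the nearest window in another state was 98.8 kb away on the 5′ side, and on the 3′ side the next measured window, 12.3 kb away and beyond the flank, was at 11.1% in Dnmt1-/-. CpGs too sparse for a window lay closer, among them an intronic CpG 345694 bases from the Arid1b start, at 81.2% in Dnmt1+/+ and 15.4% in Dnmt1-/-. The 77 promoter CpGs of Arid1b averaged 1.44% in Dnmt1+/+ and 0.768% in Dnmt1-/-. Of these, 1 was above 20% in Dnmt1+/+, at 30% against 2.17% in Dnmt1-/-.

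Fat1 encodes a giant cadherin of the cell surface. In the 102 kb gene (chr8:46035562-46137611, plus strand), kept windows lay near the start and, mixed with lower ones, in the distal part. Outside the tile, 132 of 187 CpGs at 80% or more in Dnmt1+/+ were kept (70.6%), 51 were between and 4 were lost, and the Dnmt1-/- mean was 67.2%. All 26 windows outside the tile were at 80% or more in Dnmt1+/+. In Dnmt1-/-, 19 of them were kept, 7 were between, and none had a mean over CpGs of 20% or less. The kept windows lay at 0.597 to 3.18 kb and at 57.1 to 101 kb from the start. The only measured windows between them were at 58.1% (3 CpGs, 7.79 kb) and 39.6% (3 CpGs, 38.8 kb). In the distal part 5 more windows were below the limit, at 54.0% (70.5 kb), 50.5% (81.4 kb), 43.5% (85.3 kb), 22.3% (88.3 kb) and 37.5% (101 kb). The 151 CpGs over 50 kb from the tile averaged 68.7%, against 71.5% for the 18 CpGs within 1 kb. The 17 CpGs lying 5 to 50 kb from the tile averaged 50.5%, and 7 of them were kept. Depth in the tile was low, with medians of 13 and 12 calls.

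The highest Fat1 window, at 90% (3 CpGs, 93.8 kb from the start), exceeded the tile. The lowest, at 22.3% (9 CpGs, 88.3 kb), crossed an exon boundary. Its 2 exonic CpGs were at 61.5% and 46.2% in Dnmt1-/-, and 3 of its 7 intronic CpGs had no methylated call in 21 or 22. The kept stretch that includes the tile covered 2.70 kb, since a window of 3 intronic CpGs at 58.1% ended it on the 3′ side just under the limit. On the 5′ side an unmeasured gap of 6.4 kb ended it, and the window beyond the gap was also kept (100% and 76.2%). The nearest measured windows on either side lie 13.7 kb apart. With all measured CpGs the stretch was 13.9 kb, and at a limit of 70% it was 0.919 kb. Measured CpGs within 1 kb of the annotated Fat1 start were methylated (98.9% and 65.5%, 3 CpGs), and these lie downstream of the start in an exon. The annotated Fat1 start lies only a few bases before its start codon, so a transcription start farther upstream, and the promoter there, may not be covered by these CpGs.

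Ctu1 encodes an enzyme subunit that thiolates the wobble uridine of certain tRNAs. In its 6.28 kb body (chr7:50927386-50933668, plus strand), other CpGs were measured from chr7:50930661 to chr7:50932544 alone, a span of 1.88 kb. Most of the body was thus not read. The 3 windows of this span outside the tile were all kept, at 61.5% (4 CpGs), 76.5% (7 CpGs) and 70.5% (3 CpGs). The lowest of these rests on CpGs from 30.8 to 92.3%, and its pooled interval of 48.0 to 73.5% (95% Wilson) includes the limit of 60%. Upstream of the start the level was lower. The 4 promoter CpGs, all before the start, were at 98.8% in Dnmt1+/+ and 18.2% in Dnmt1-/-, with single CpGs at 36.4%, 25%, 6.82% and 4.55% on 44 calls each. The pooled interval of this window, 13.2 to 24.5% (95% Wilson), includes the limit of 20%. Of all 18 CpGs outside the Ctu1 tile at 80% or more in Dnmt1+/+, 11 were kept (61.1%), 5 were between and 2 were lost. The kept stretch covered 1.88 kb (0.25 kb at a limit of 70%), and the lost window lay 3.99 kb from it.

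**Figure D2:**
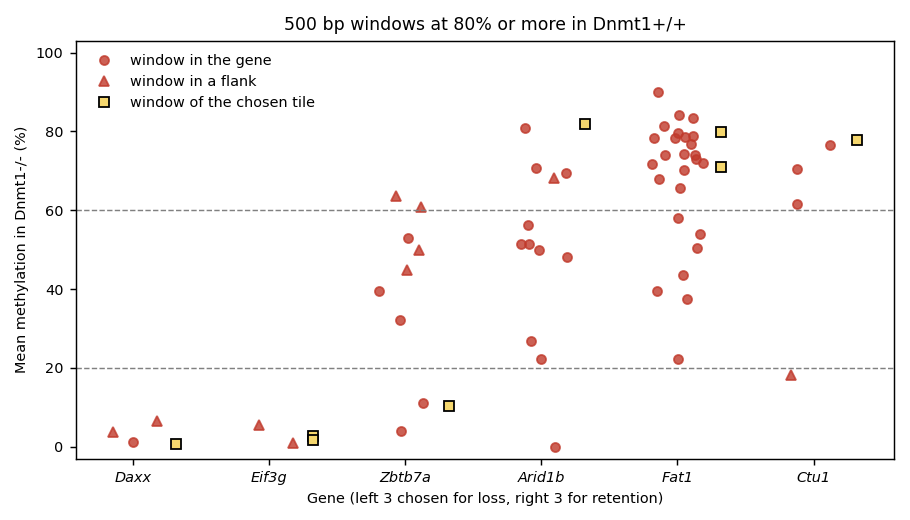
Mean Dnmt1-/- methylation (y axis, %) of each 500 bp window with at least 3 CpGs outside CCGG and TCGA and 80% or more in Dnmt1+/+, by gene (x axis). Circles are windows in the gene, triangles windows in a flank, yellow squares windows of the chosen tile, and dashed lines the limits of 20% and 60%. Daxx and Eif3g windows lie between 1.04% and 6.64% outside the tile, whereas Zbtb7a, Arid1b, Fat1 and Ctu1 windows spread over more than 50 points.

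Across all measured windows of this class, 32.7% were lost and 14.0% were kept. Outside the tiles, the windows of the 6 genes split as follows. All 3 Daxx windows and both Eif3g windows were lost, as were 2 of 9 Zbtb7a windows, 1 of 12 in Arid1b, 0 of 26 in Fat1 and 1 of 4 in Ctu1. Kept windows numbered 2 of 9 in Zbtb7a, 4 of 12 in Arid1b, 19 of 26 in Fat1 and 3 of 4 in Ctu1.

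**Figure D3:**
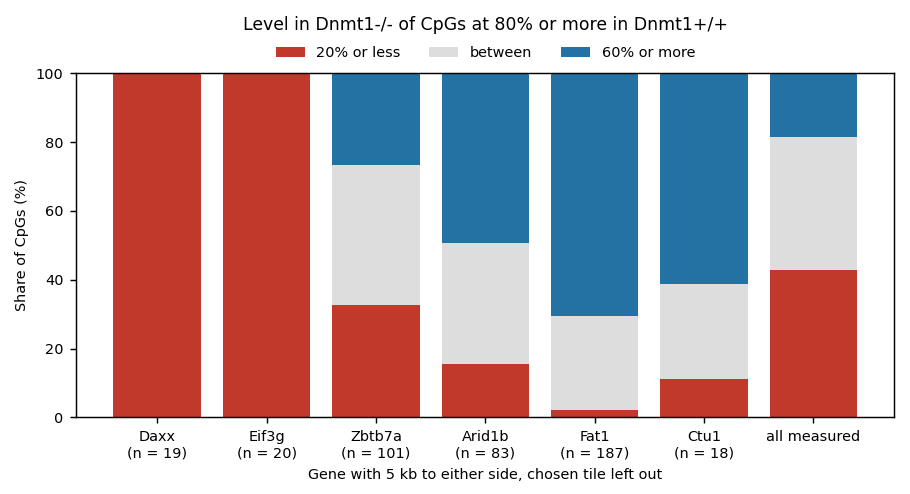
Share (y axis, %) of CpGs at 80% or more in Dnmt1+/+ that were at 20% or less (red), between (grey) or at 60% or more (blue) in Dnmt1-/-, for each gene with 5 kb to either side and the chosen tile left out, and for all 377268 such CpGs measured. The lost share is 100% in Daxx and Eif3g, 32.7% in Zbtb7a and 42.9% over all CpGs, and the kept share is 70.6% in Fat1 and 18.4% over all CpGs. Flanks are included: in the gene body of Zbtb7a alone the lost share was 63.8%, against 35.0% over all gene bodies.

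Stricter limits left 18 of the 19 lost CpGs of Daxx, 18 of 20 in Eif3g and 25 of 33 in Zbtb7a in their class, and 11 of the 41 kept CpGs of Arid1b, 71 of 132 in Fat1 and 4 of 11 in Ctu1. At 10% or less, which held for 27.6% of all CpGs at 80% or more in Dnmt1+/+, the lost shares outside the tile were 94.7% in Daxx, 90% in Eif3g and 24.8% in Zbtb7a. At 80% or more, which held for 6.26% of all, the kept shares were 13.3% in Arid1b, 38.0% in Fat1 and 22.2% in Ctu1.

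Exonic CpGs of Fat1 held more methylation than intronic ones, a difference given with no test. Of the CpGs at 80% or more in Dnmt1+/+ in its body outside tile and promoter, 112 of 140 exonic CpGs were kept (80%), with a Dnmt1-/- mean of 72.7%, against 17 of 43 intronic CpGs (39.5%), with a mean of 49.0%. Over all gene bodies the kept shares were 28.6% of exonic and 21.1% of intronic CpGs. The exonic CpGs also had more CGs within 100 bp (12.5 against 6.21 on average). Where CpG density was similar, at 4 to 7 CGs within 100 bp, exonic CpGs averaged 64.1% (20 CpGs) and intronic CpGs 57.3% (28 CpGs). At 8 or more CGs the means were 74.2% (120 CpGs) and 26.6% (11 CpGs), and 6 of these 11 lie in the lowest window of Fat1.

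Arid1b showed the same order, also with no test. Of 15 exonic CpGs, 11 were kept, with a mean of 65.7%. Of 62 intronic CpGs 28 were kept, with a mean of 51.0%. Of the exonic CpGs, 7 lay within 1 kb of the tile and averaged 69.5%. Exonic CpGs also had more CGs within 100 bp (8.73 against 5.81 on average). At 4 to 7 CGs the means were 62.5% (5 exonic CpGs) and 51.5% (36 intronic CpGs). At 8 or more they were 67.3% (10 CpGs) and 44.9% (17 CpGs). A single exonic CpG of Arid1b 249 kb from the start had 0 methylated of 118 calls in Dnmt1-/- and 88.9% of 54 calls in Dnmt1+/+, whereas the other 2 CpGs of its window were at 66.7% and 77.8% on 18 calls each. The methylated CpGs of Daxx, Eif3g and Ctu1 outside tile and promoter were exonic throughout the gene body, so no such contrast could be made there.

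**Figure D4:**
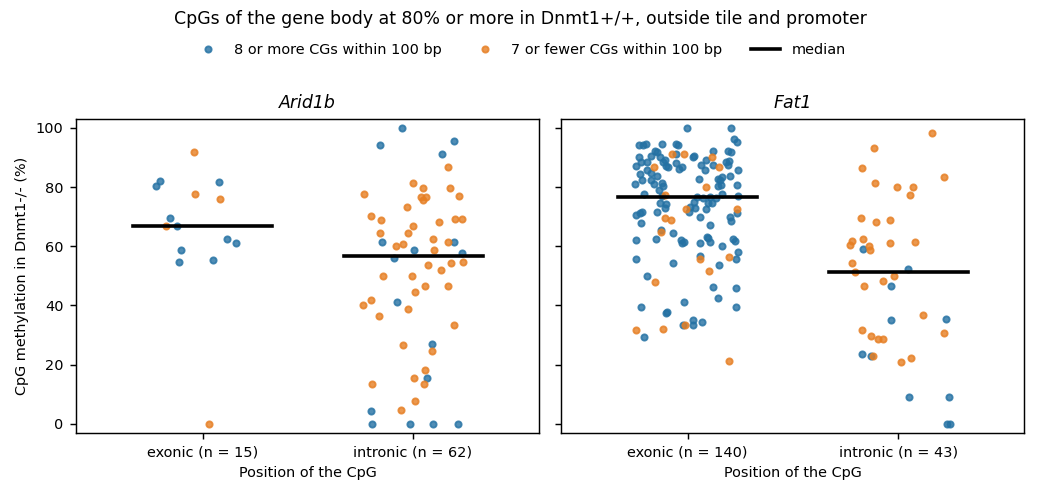
Dnmt1-/- methylation (y axis, %) of single gene-body CpGs at 80% or more in Dnmt1+/+, outside tile and promoter, in exons and introns (x axis) of Arid1b and Fat1. Blue points have 8 or more CGs within 100 bp, orange points 7 or fewer, and black lines are medians. Exonic medians (66.7% and 76.5%) lie above intronic medians (56.8% and 51.2%), and every group spans more than 70 points.

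CpGs that were low in Dnmt1+/+ stayed low. In the 6 genes, 342 CpGs outside the tiles were at 20% or less in Dnmt1+/+, and all 342 were at 20% or less in Dnmt1-/-. Over all other CpGs at 20% or less in Dnmt1+/+ the share was 98.6%. The 342 CpGs were 88 in Daxx, 24 in Eif3g, 110 in Zbtb7a and 120 in Arid1b, while Fat1 and Ctu1 held none, with lowest Dnmt1+/+ values of 22.4% and 40%. The Zbtb7a promoter was not uniformly low. It had 4 of 28 CpGs above 20% in Dnmt1+/+, and its window with a Dnmt1+/+ mean of 40.1% (3 CpGs) was at 6.06% in Dnmt1-/-.

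Per-CpG calls were compared by Fisher's exact test (two-sided, Benjamini-Hochberg adjustment over all CpGs), which compares the 2 libraries and not the genotypes. Of the 812 CpGs of the 6 genes outside the tiles, 362 were called lower in Dnmt1-/- at an adjusted p under 0.05, against 44.2% of all other CpGs (43.7% with CCGG and TCGA included). The rule used this contrast, so nothing is read from the count. None was called higher, against 0.635% of all other CpGs; 2 were higher at an unadjusted p under 0.05, with a smallest adjusted p of 0.0516 by the same Fisher's exact test. Of CpGs at 80% or more in Dnmt1+/+, 88.2% of all were called lower, and by gene these were 19 of 19 in Daxx, 20 of 20 in Eif3g, 90 of 101 in Zbtb7a, 62 of 83 in Arid1b, 121 of 187 in Fat1 and 13 of 18 in Ctu1. In Fat1 the mean of these CpGs was 98.0% in Dnmt1+/+ and 67.2% in Dnmt1-/-.

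CpGs in CCGG or TCGA gave another picture of loss. In the chosen tiles they averaged 48.7% in Daxx, 50.6% in Eif3g and 46.3% in Zbtb7a in Dnmt1-/- (5 CpGs each), far above the other CpGs of those tiles. In the retained tiles they averaged 83.7% in Arid1b (7 CpGs), 88.4% in Fat1 (8 CpGs) and 91.2% in Ctu1 (3 CpGs). In the Daxx promoter, where other CpGs averaged 2.64% and 1.41%, such CpGs were at 50.3% in Dnmt1+/+ and 51.2% in Dnmt1-/- (16 CpGs). With these CpGs counted, the lost share outside the tile was 58.8% in Daxx, 60% in Eif3g and 21.8% in Zbtb7a.

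Genes of the same families or complexes were read as a further frame, over CpGs of the gene body at 80% or more in Dnmt1+/+. Of 31 partners listed, 14 had at least 10 such CpGs, with Dnmt1-/- means from 17.6% in Eif3l (33 CpGs), another eIF3 subunit, to 63.0% in Zbtb7b (10 CpGs), the paralogue of Zbtb7a, and a median of 34.4%. Eif3d, the only other eIF3 subunit with enough CpGs, averaged 24.1% (21 CpGs). The eIF3 subunits with fewer such CpGs, named after their values were seen, ranged from 3.93% in Eif3a (4 CpGs) to 54.5% in Eif3i (8 CpGs, 5 kept). All such CpGs were lost in Eif3a, Eif3c (2 CpGs), Eif3f (2 CpGs) and Eif3k (3 CpGs), against 5 of 8 in Eif3b, 2 of 7 in Eif3h, 1 of 4 in Eif3e and 1 of 3 in Eif3j. Of the 8 partners of Arid1b, the 5 with at least 10 CpGs ranged from 29.7% to 55.3%, and of those with fewer, named after their values were seen, Smarcb1 was at 64.8% (8 CpGs) and Smarcc2 at 20.6% (3 CpGs). The 4 partners of Fat1 ranged from 22.3% to 58.9%. The gene-body means on the same scale, outside tile and promoter, were 0.909% in Daxx (5 CpGs), 0% in Eif3g (2 CpGs), 21.1% in Zbtb7a (47 CpGs), 53.8% in Arid1b (77 CpGs), 67.2% in Fat1 (183 CpGs) and 70.9% in Ctu1 (14 CpGs), against 36.9% over all gene bodies.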

How the data were processed

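RRBS of 1 Dnmt1+/+ and 1 Dnmt1-/- MEF library was analysed, grouped by the genotype in the labels. A sequencing provider made the libraries and mapped the reads. The submitters' processing notes name Bismark and mm9, and versions, enzymes and the conversion rate are not given in the sources used here. Per CpG the authors deposited a count of calls (depth), with 1 entry per CpG, at a minimum of 10 in both libraries set by the authors. The deposited percent values are methylated calls over all calls, and percent multiplied by depth gave whole numbers throughout.

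All 1790826 positions fell on a CG of NCBIM37, and genes came from GENCODE vM1. CpGs in CCGG or TCGA were left out of the values unless stated. The genes, partner lists and limits were chosen with earlier results of these data known. A window of 500 bp needed 3 other CpGs, and a stretch ran outward from the tile to the first measured window in another state or an unmeasured gap of over 5 kb. Calls were compared with Fisher's exact test, adjusted over all CpGs (threshold 0.05), which was tested on simulated data. Pooled calls carry 95% Wilson intervals, which cover counting error only, since reads copied by PCR and not tagged by molecule are not independent.

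The named genes were the 6 members, the tiles ranked next on each list, neighbours within 5 kb, and the highest and lowest partners over all lists and in the largest list. Dnmt1 and the partners with fewer than 10 CpGs were named after their values were seen. The alternatives were all measured CpGs, a depth of 20, pooled calls, stricter limits, gene bodies alone, other windows and gaps, an adjusted p under 0.01 and a difference of at least 25 points. The other assays of the study were not used here. Tables were read with pandas 2.3.3 and numpy 2.4.6 in python 3.11.15, tests were run with numba 0.67.0 and checked against scipy 1.17.1, and plots were drawn with matplotlib 3.10.9.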

Additional observations from a re-analysis of the deposited data

How the results depend on the processing

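Of 88 values recomputed under the alternatives, 28 moved and 60 did not, and the cause was not tested. A share moved when it left its 95% Wilson interval over CpGs, a mean when it changed by more than the upper arm of the Wilson interval on its pooled calls, and a length or count when it changed by over 1.5 times. For genes with few CpGs these limits are wide, so that the Daxx gene-body mean of 3.41% at a depth of at least 20 did not count as moved. Gene-body means here are over CpGs of any Dnmt1+/+ level outside tile and promoter, and were 1.14% (Daxx), 0% (Eif3g), 8.25% (Zbtb7a), 34.5% (Arid1b), 65.6% (Fat1) and 70.9% (Ctu1) before any change. Counting all CpGs gave lost shares of 58.8% (Daxx), 60% (Eif3g) and 21.8% (Zbtb7a), gene-body Dnmt1-/- means of 16.9% (Daxx), 36.0% (Eif3g), 21.2% (Zbtb7a), 49.8% (Arid1b) and 68.3% (Fat1), and stretches of 0.446 kb (Zbtb7a), 1.19 kb (Arid1b) and 13.9 kb (Fat1). Stricter limits gave kept shares of 13.3% (Arid1b), 38.0% (Fat1) and 22.2% (Ctu1) and stretches of 0.307 kb, 0.919 kb and 0.25 kb in that order. A depth of at least 20 gave gene-body means of 29.0% (Arid1b), 7.02% (Zbtb7a) and 75.3% (Ctu1), and 40 (Arid1b) and 11 (Eif3g) CpGs called lower. Pooled calls gave 29.1% (Arid1b), 67.4% (Fat1) and 10.6% (Zbtb7a). Windows of 1 kb gave 1.03 kb for Arid1b, a gap of 2 kb gave 0.468 kb for Eif3g, and the body of Zbtb7a alone had a lost share of 63.8%.

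A depth of at least 20 left no gene-body CpG of Eif3g, and stricter limits left no lost stretch in Zbtb7a. No paired analysis was possible because there was a single library of each genotype. Stretch lengths depend on which CpGs were measured, and gaps between windows reached 98.8 kb next to the Arid1b tile.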

Other observations

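Ranked by other CpGs alone, among 555 tiles with at least 15 such CpGs and 80% or more in Dnmt1+/+, the Eif3g and Daxx tiles had the largest falls (ranks 1 and 2) and Zbtb7a ranked 6, behind the tile of Rassf1 at rank 4. By Dnmt1-/- mean, Arid1b ranked 1, Ctu1 6 and Fat1 8, behind Bend3 at rank 5. On this order from highest to lowest, Daxx, Eif3g and Zbtb7a ranked 554, 551 and 524 of the 555, so other tiles had lower Dnmt1-/- means than Zbtb7a. The median tile had a Dnmt1-/- mean of 40.9%, with 12.4% at the 10th and 69.5% at the 90th percentile.

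Dnmt1 itself is annotated 8.61 kb from Eif3g, on the same strand, and was named after the values were seen. It lies on the side where Eif3g begins, and the Eif3g locus had the highest ratio of Dnmt1-/- to Dnmt1+/+ calls of the 6 genes, at 1.43.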
